A study of Mus musculus with 28 samples.

Results

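The proteasome genes described here are the 50 of 19532 named mouse genes on the array whose symbol starts with Psma, Psmb, Psmc, Psmd, Psme, Psmf or Psmg. Of these, 48 were measured in at least 2 mice of every group and were tested among 14783 genes. Psmb8, Psmb9, Psmb10, Psme1 and Psme2, the subunits that interferon-gamma induces in many cell types, were set against the other 43. RNA came from the skin of 24 mice on 28 two-colour Agilent arrays, taken 2 weeks after transfer of spleen cells. All recipients were balb mice lacking Rag2 (rag2-/-). Donor cells came from B10.D2 mice, which gave chronic graft-versus-host disease and are called allo, or from balb/c mice, the syngeneic controls called syn. There were 4 syn and 5 allo mice with the Rag2 deletion alone. A further 4 syn and 4 allo mice also lacked Il13, the cytokine interleukin-13. In another 3 syn and 4 allo mice Il4ra was deleted as well, which encodes the receptor chain that interleukin-4 and interleukin-13 signal through. The labels name these deletions for the recipients and none for the donor cells, so lymphocytes of donor origin could still carry the intact genes. Rag2-/- hosts form no T or B cells of their own but keep other leukocytes. The labels give no age, and they write IL14Ra for mouse 5718, which was counted with the Il4ra group.

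The proteasome is the barrel-shaped protease that degrades ubiquitin-tagged proteins. Its 20S core stacks rings of alpha and beta subunits, and a 19S cap of ATPases and other subunits recognises and unfolds the substrate. Interferon-gamma makes cells swap the 3 constitutive catalytic beta subunits for inducible ones, which gives the immunoproteasome, and adds the PA28 alpha and beta cap. The peptides produced in this way are carried by the Tap transporter and presented on MHC class I to CD8 T cells, a pathway long studied in graft-versus-host disease.

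All levels below are log2 of skin over a common reference RNA pooled from mouse cell lines, with arrays of the same mouse averaged, so 0 marks a level equal to the reference and a difference of 1 is a doubling. Levels of different genes cannot be set against each other on this scale. A gene passed the test when its adjusted p was at most 0.05. All 12 keratinocyte markers had a median level above 0. Rag2 itself lay between -0.06 and 0.26 in every mouse measured. Il13 ran from -1.40 to -0.27 in allo Il13-deficient mice and from -0.36 to 0.86 in allo mice lacking Rag2 alone, and from -0.42 to 0.39 and 0.06 to 0.36 in the syn mice of the same genotypes. Il4ra had a median of 0.61 in allo and -0.22 in syn Il4ra-deficient mice, against 1.80 and 0.66 in mice lacking Rag2 alone. Where the probes lie relative to the deleted segments is not known here, so these levels check no label. Mice 6229 and 6234, both syn and Il13-deficient, stood apart from the other syn mice. Their mean level over the 2 hair follicle markers measured in all mice was 3.29 and 4.21, while the other 9 syn mice lay between -1.69 and 0.58. Most results that involve that group are therefore also given without them.

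The 3 immunoproteasome catalytic subunits were higher in allo than in syn skin in all 3 recipient genotypes, by 4.32- to 9.08-fold. Both PA28 cap genes were higher by 2.77- to 3.80-fold. All 5 inducible genes passed the test in every donor comparison. Allo and syn mice never overlapped for these 5, but the share of all genes that separate in this way was not counted. Among all genes tested, 12.6% were called higher in Rag2-/- recipients, 9.19% in Il13-deficient and 5.91% in Il4ra-deficient recipients. The median difference of the 5 was 2.11, 2.93 and 2.38 in the same order, and 2.38 in Il13-deficient recipients without mice 6229 and 6234, where 6.48% of all genes were called higher. The median over all genes tested was -0.08, -0.05 and -0.05. By size of difference the 5 ranked between 157 and 457 of 14783 genes in Rag2-/- recipients, between 102 and 404 in Il13-deficient ones and between 84 and 377 in Il4ra-deficient ones. Each of the 15 calls held in all alternatives tried.

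Psmb8 encodes the inducible chymotrypsin-like subunit. In Rag2-/- recipients its level was 3.31, 3.32, 3.46, 3.28 and 3.91 in the allo mice and 1.01, 1.20, 1.06 and 1.09 in the syn mice. In Il13-deficient recipients it was 3.25, 3.26, 3.03 and 3.26 against 0.73, -0.35, 0.63 and -0.94. The Il4ra-deficient mice stood at 3.30, 3.26, 3.04 and 3.06 against 0.67, 0.65 and 0.56. Every allo mouse lay above 3 and every syn mouse at or below 1.20, and the lowest 2 values belonged to mice 6229 and 6234. The allo minus syn difference was 2.36 ± 0.23 (SE) in Rag2-/- (adjusted p = 2.61e-07), 3.18 ± 0.25 in Il13-deficient (7.17e-09) and 2.54 ± 0.27 in Il4ra-deficient recipients (1.95e-06). The Il13-deficient difference without mice 6229 and 6234 was 2.52 ± 0.15 (adjusted p = 4.18e-09).

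Psmb9 encodes the inducible subunit that takes the place of the caspase-like one. In Rag2-/- recipients it measured 3.85, 3.78, 4.05, 3.88 and 4.17 in allo and 1.87, 1.95, 1.93 and 1.60 in syn skin. Among Il13-deficient mice the values were 3.77, 3.65, 3.36 and 3.82 in allo and 1.31, 0.05, 1.22 and -0.65 in syn skin. Il4ra-deficient mice gave 3.90, 3.80, 3.77 and 3.63 against 1.54, 1.15 and 1.11. The allo groups fell within a narrow band, whereas the syn Il13-deficient group spread most, with an SD of 0.95. The differences were 2.11 ± 0.27 (SE, adjusted p = 7.08e-06), 3.17 ± 0.28 (5.51e-08) and 2.51 ± 0.31 (1.18e-05). The middle one was 2.38 ± 0.16 (adjusted p = 1.1e-08) when mice 6229 and 6234 were left out.

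Psmb10 encodes the inducible trypsin-like subunit. In Rag2-/- recipients the allo mice measured 2.84, 2.60, 2.82, 2.46 and 3.13 and the syn mice 0.06, 0.39, 0.01 and 0.37. With Il13 also missing, the values were 2.40, 2.86, 2.45 and 2.50 against 0.28, -0.83, -0.02 and -0.93. With Il4ra missing, they were 2.38, 2.62, 2.16 and 2.40 against 0.41, -0.16 and -0.23. Syn skin was thus near or below the reference and every allo mouse at least at 2.16. The differences were 2.57 ± 0.22 (SE, adjusted p = 2.52e-08), 2.93 ± 0.23 (7.17e-09) and 2.38 ± 0.25 (1.62e-06). The value without mice 6229 and 6234 was 2.42 ± 0.21 (adjusted p = 2.68e-07).

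**Figure D1:**
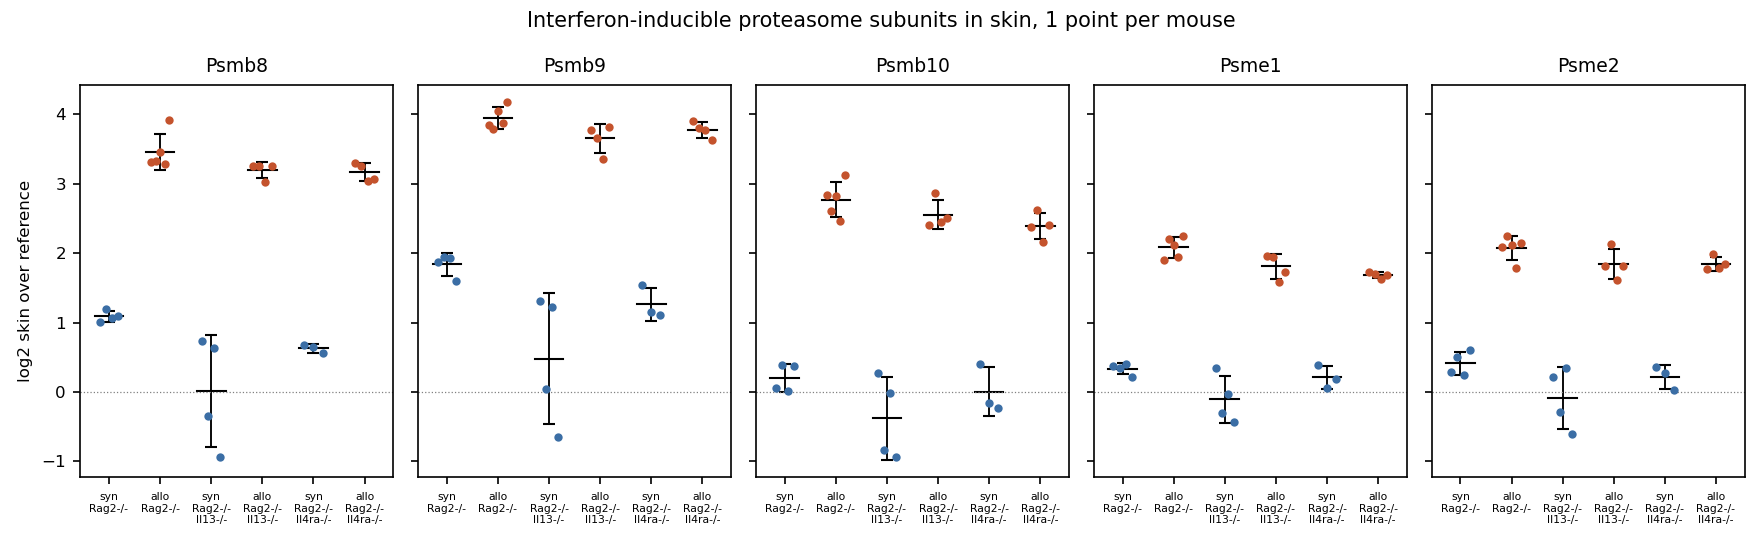
Level of the 5 interferon-inducible genes (log2 skin over reference, vertical axis) in each mouse of the 6 groups, blue for syn and orange for allo, with the mean and SD in black. Allo and syn points do not overlap for any of the 5 genes, but the share of all genes that separate was not counted. The syn Il13-deficient group spreads most.

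Psme1 and Psme2 encode the alpha and beta chains of PA28, a ring that caps the core and eases the release of peptides. Psme1 in Rag2-/- recipients measured 1.90, 2.20, 2.12, 1.95 and 2.24 in allo and 0.38, 0.34, 0.40 and 0.22 in syn mice. In Il13-deficient recipients it was 1.96, 1.95, 1.59 and 1.73 against 0.34, -0.30, -0.03 and -0.43, and in Il4ra-deficient ones 1.73, 1.70, 1.62 and 1.68 against 0.39, 0.06 and 0.19. The allo Il4ra-deficient mice were the most alike, with an SD of 0.04. The allo minus syn difference of Psme1 was 1.75 ± 0.14 (SE, adjusted p = 7.86e-09), 1.92 ± 0.14 (4.41e-09) and 1.47 ± 0.15 (1.92e-06). Psme2 in Rag2-/- recipients measured 2.09, 2.25, 2.12, 1.79 and 2.15 against 0.29, 0.51, 0.25 and 0.60. It measured 1.82, 2.13, 1.61 and 1.82 against 0.22, -0.29, 0.35 and -0.61 in Il13-deficient mice, and 1.77, 1.99, 1.78 and 1.84 against 0.36, 0.27 and 0.03 in Il4ra-deficient mice. As for Psme1, the lowest syn values in the Il13-deficient group were those of mice 6229 and 6234. The differences of Psme2 were 1.67 ± 0.17 (adjusted p = 2.63e-07), 1.93 ± 0.17 (6.37e-08) and 1.63 ± 0.19 (6.39e-06). Without those 2 mice the Il13-deficient difference was 1.66 ± 0.15 for Psme1 and 1.56 ± 0.16 for Psme2.

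The promoters of Psmb8 and Psme1 are shown because, of the 5 genes that rose together, theirs held a match to a motif of the interferon response. Promoter windows ran from 250 bases before to 50 after the start, in RefSeq on GRCm38.p6, and 6 windows covered the 5 genes. The motifs searched on both strands were TTCNNNGAA (GAS, bound by STAT factors) and GAAANNGAA (bound by interferon regulatory factors). The Psmb8 window lies at chr17:34197945-34198244 on the plus strand, and its GAS match, in capitals, covers bases -97 to -89 from the start. The Psme1 window lies at chr14:55578244-55578543 on the plus strand, and its GAAANNGAA match reads on the opposite strand at bases 11 to 19, also in capitals.
Psmb8: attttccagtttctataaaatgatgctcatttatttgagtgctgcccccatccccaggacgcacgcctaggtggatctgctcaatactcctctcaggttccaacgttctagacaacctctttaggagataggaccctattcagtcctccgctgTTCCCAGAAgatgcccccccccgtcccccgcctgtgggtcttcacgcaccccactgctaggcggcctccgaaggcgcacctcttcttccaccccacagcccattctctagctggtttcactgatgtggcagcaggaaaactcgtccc
Psme1: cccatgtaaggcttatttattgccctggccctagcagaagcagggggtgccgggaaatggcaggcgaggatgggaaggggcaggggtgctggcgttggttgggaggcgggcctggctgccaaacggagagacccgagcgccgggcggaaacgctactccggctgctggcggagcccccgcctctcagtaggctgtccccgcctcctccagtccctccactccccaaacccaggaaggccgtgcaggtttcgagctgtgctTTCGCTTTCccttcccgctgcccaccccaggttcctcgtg
GAS was found in 1 of the 6 windows of the inducible genes, in 2 of the 40 windows of other proteasome genes (5%) and in 8.3% of all 32851 windows. The regulatory factor motif was found in 1 of 6, in 6 of 40 (15%) and in 8.56% of all. CCAAT, a general promoter box, occurred in 1 of 6, 15 of 40 (37.5%) and 37.4% of all windows. TGACNNNGC, bound by the Nfe2l1 and Nfe2l2 factors that drive proteasome genes, occurred in 0 of 6, 6 of 40 (15%) and 12.4% of all windows. These are matches of letters only, and binding was not measured.

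The chromosomal neighbours of the inducible genes were followed because Psmb9 and Psmb8 lie in the MHC class II region of chromosome 17, with Tap1 between them and Tap2 on the far side of Psmb8. Tap1 and Tap2, which form the peptide transporter, were higher in allo skin by 2.00 and 1.96 in Rag2-/-, 2.10 and 2.12 in Il13-deficient and 2.27 and 1.93 in Il4ra-deficient recipients, and all 6 differences passed the test. Those in Il13-deficient recipients were 1.83 and 1.80 without mice 6229 and 6234. H2-DMa and H2-DMb1, class II chaperones on the other side of Psmb9, also passed in each recipient, at 1.87, 2.66 and 1.90 and at 1.40, 2.18 and 1.62. H2-Ab1, a class II chain beyond Tap2, differed by 0.57, 1.14 and 0.61 and passed in Il13-deficient recipients alone (adjusted p = 0.0475), where it was 0.62 (0.398) without the 2 mice. On chromosome 14, Psme1 and Psme2 lie on either side of Emc9, a membrane protein insertion factor, whose differences of -0.59, -0.21 and -0.33 did not pass. Next to Psme2 lie Rnf31, a chain of the linear ubiquitin ligase, at 1.09, 1.16 and 0.90, and Irf9, an interferon signalling factor, at 1.16, 1.73 and 1.72, all of which passed. Without the 2 mice they were 0.88 and 1.28 in Il13-deficient recipients. Pck2, Dcaf11 and Fitm1 before Psme1 and Rec8 beyond Irf9 passed in none. Psmb10 lies on chromosome 8, and of its tested neighbours Slc12a4, an ion cotransporter, passed in Rag2-/- recipients at 0.29, while Lcat, Pskh1 and Nrn1l passed in none. The neighbours were named by their position in the gene table.

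None of the constitutive catalytic subunits that the inducible ones replace passed the test in any donor comparison. Psmb5, the chymotrypsin-like subunit, had a mean of 0.08 ± 0.16 (SD, n = 5) in allo and 0.13 ± 0.24 (n = 4) in syn Rag2-/- mice, with values from -0.04 to 0.33 and from -0.21 to 0.35. In Il13-deficient mice it was -0.05 ± 0.13 (n = 3, not measured in mouse 6223) against 0.30 ± 0.15, and in Il4ra-deficient mice 0.01 ± 0.11 against 0.17 ± 0.14. Allo lay below syn without overlap in the Il13-deficient mice, but the difference of -0.35 ± 0.14 (SE) missed the threshold (adjusted p = 0.0942). Psmb6, the caspase-like subunit, differed by 0.02, -0.09 and -0.02 in the 3 recipients, and Psmb7, the trypsin-like subunit, by 0.00, -0.19 and -0.14. None passed (adjusted p from 0.369 to 0.997), and the levels of the 2 genes ran from -0.12 to 0.50 over all 24 mice. Psme3, which forms a separate nuclear PA28 ring, differed by -0.40, 0.15 and -0.49, again without passing (lowest adjusted p = 0.158).

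Each inducible subunit was then set against its counterpart within the same mouse, as the difference of their log2 ratios, which is compared between groups only. Psmb8 minus Psmb5 in Rag2-/- recipients was 3.34, 2.99, 3.44, 3.32 and 3.77 in allo and 0.81, 1.41, 0.87 and 0.74 in syn mice. The same value was 3.26, 3.0 and 3.46 against 0.39, -0.75, 0.55 and -1.31 in Il13-deficient mice, and 3.39, 3.30, 3.06 and 2.90 against 0.34, 0.58 and 0.45 in Il4ra-deficient mice. The highest syn mouse, at 1.41, remained below the lowest allo mouse, at 2.90. Psmb9 minus Psmb6 ran from 3.20 to 3.87 in allo and from -0.75 to 2.06 in syn mice, and Psmb10 minus Psmb7 from 1.99 to 2.99 and from -1.38 to 0.28. Again the donor groups did not overlap, but how often other gene pairs separate in this way was not counted. In Rag2-/- recipients the 3 balances differed by 2.41, 2.09 and 2.57 between allo and syn, each with p = 0.0159 by an exact two-sided permutation test, the smallest that 5 against 4 mice can give (0.0476 adjusted over the 9 tests). In Il13-deficient recipients the differences were 3.52, 3.25 and 3.12. The exact permutation p was 0.0571 for the first, where 1 mouse lacked Psmb5, and 0.0286 for the others, which became 0.0571 and 0.0514 after adjustment. Without mice 6229 and 6234 these differences were 2.77, 2.45 and 2.58. In Il4ra-deficient recipients they were 2.70, 2.52 and 2.52, with an exact p of 0.0571, which with 4 against 3 mice cannot be lower. All 9 exact p, in each recipient, were the smallest that the mice measured can give. Whether a balance passed thus followed the number of mice and the adjustment, and does not rank the recipients. The adjusted p of the Rag2-/- balances passed the threshold narrowly.

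**Figure D2:**
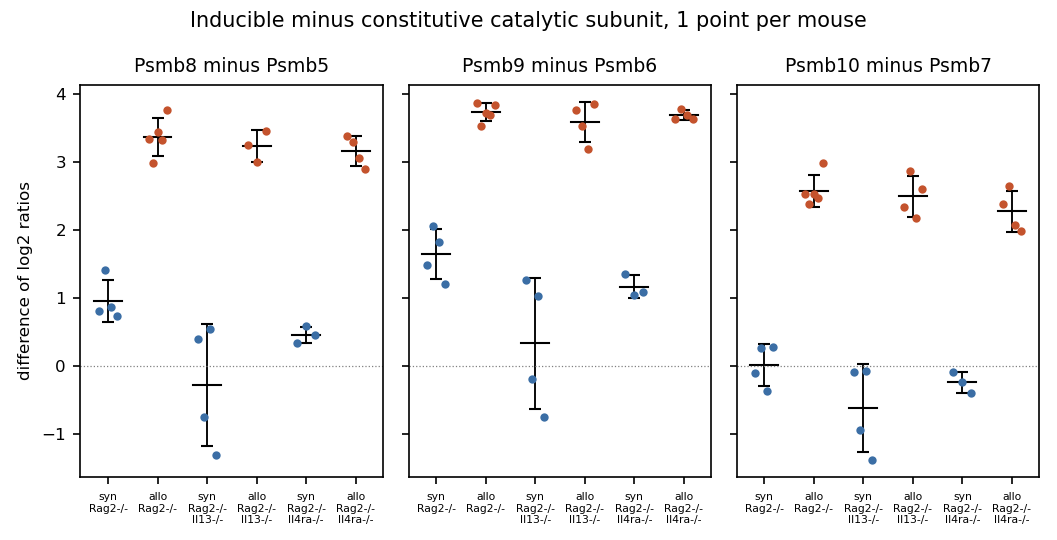
Difference of log2 ratios between each inducible catalytic subunit and the constitutive subunit it replaces (vertical axis), 1 point per mouse in the 6 groups, blue for syn and orange for allo, with the mean and SD in black. For Psmb8 minus Psmb5 the highest syn mouse is at 1.41 and the lowest allo mouse at 2.90.

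A smaller share of the other 43 proteasome genes passed than of the inducible 5, with smaller differences. In Rag2-/- recipients 7 (16.3%) were higher in allo skin, beside 12.6% of all genes, and 3 (6.98%) were lower, beside 15.6% of all genes. In Il13-deficient recipients 2 (4.65%) were higher and 3 (6.98%) lower, beside 9.19% and 7.11% of all genes. These became 1 (2.33%) and 2 (4.65%) without mice 6229 and 6234, beside 6.48% and 3.53%. In Il4ra-deficient recipients 2 (4.65%) were higher and 2 lower, beside 5.91% and 3.31%. Their median difference was 0.17, -0.09 and 0.06, and without mice 6229 and 6234 the second turned to 0.07. None of the 43 reached 2-fold in any of the 3 comparisons. In all, 29 of the 43 passed in no comparison, and only Psma5 was called higher in all 3, though several alternatives ended its calls in Il13-deficient and Il4ra-deficient recipients.

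Of the 7 alpha-ring genes of the core, 3 passed as higher in Rag2-/- recipients and 1 in each of the others. Of all genes 12.6% were called higher in Rag2-/-, 9.19% in Il13-deficient and 5.91% in Il4ra-deficient recipients. Psma5 measured 0.58, 0.68, 0.62, 0.47 and 0.74 in allo and -0.20, -0.27, -0.23 and 0.25 in syn Rag2-/- mice. In Il13-deficient mice it was 0.34, 0.78, 0.04 and 0.47 against -0.40, 0.08, 0.02 and -0.07, where the groups overlapped, and in Il4ra-deficient mice 0.48, 0.50, 0.50 and 0.26 against -0.04, 0.02 and -0.31. Its differences were 0.73 ± 0.14 (SE, adjusted p = 0.000783), 0.50 ± 0.15 (0.0268) and 0.55 ± 0.16 (0.0406). The second call was lost without mouse 6224, 6225 or 6232 (0.38 to 0.48) and in a fit of the compared groups alone, and was 0.60 (adjusted p = 0.0483) without mice 6229 and 6234. The third was lost without 4533, 4534, 4535, 5701, 5717, 5718 or 5719 (0.45 to 0.61). It was also lost with the leading digits of the mouse numbers as a block (0.53, adjusted p = 0.0597), with exact 0 kept as a value (0.0563) and with dim repeated values missing (0.107). Psma7 rose by 0.70 ± 0.17 (adjusted p = 0.00465) in Rag2-/- recipients, where allo mice ran from 0.57 to 1.13 and syn mice from -0.12 to 0.54. It differed by 0.28 and 0.27 in the other recipients without passing. The remaining alpha-ring call was Psma4, named after its value was seen, at 0.46 (adjusted p = 0.0261).

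Of the 7 standard beta-ring genes, 1 passed as higher in Rag2-/- recipients, none in Il13-deficient and 1 in Il4ra-deficient recipients, beside 12.6%, 9.19% and 5.91% of all genes. The first was Psmb2, a structural subunit named after its value was seen, at 0.60 (adjusted p = 0.00336). The other was Psmb3, also structural, at 0.55 ± 0.17 (SE, adjusted p = 0.0482), a call lost in 21 of 35 alternatives. Of these, 15 left out a single mouse and gave 0.47 to 0.58.

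Of the 6 ATPases of the 19S base, only Psmc6 passed, with a fall of 0.54 ± 0.14 (SE, adjusted p = 0.00696) in Rag2-/- recipients. Its 2 probes gave -0.85 and -0.23, and its call was lost in a fit of the compared groups alone (adjusted p = 0.0537). Of the 11 other 19S subunits, Psmd4, a ubiquitin receptor, and Psmd1, a scaffold named after its value was seen, were higher in Rag2-/- recipients by 0.62 ± 0.21 (adjusted p = 0.0314) and 0.44 ± 0.16 (0.0418). The 2 probes of Psmd4 gave 0.16 and 1.07, and its call was lost without mouse 5700, 5701, 5703, 6151 or 6154 (0.53 to 0.61). It was also lost with the leading digits of the mouse numbers as a block (0.58, adjusted p = 0.0608) and with dim repeated values missing (0.16, 0.485). Psmd6, a lid subunit, fell by 0.59 ± 0.17 (adjusted p = 0.0306) in Il4ra-deficient recipients, where it measured -0.07, 0.20, 0.05 and 0.27 in allo and 0.77, 0.73 and 0.62 in syn mice. That call was lost without mouse 4533, 4535, 5717 or 5718 (-0.58 to -0.54) and with quantile normalization. No other 19S subunit passed in any donor comparison. Of all genes 12.6% were called higher and 15.6% lower in Rag2-/- recipients, and 5.91% and 3.31% in Il4ra-deficient ones.

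Among the assembly chaperones of the core, Psmg2 was lower in allo skin and Psmg4 higher. Psmg2, which pairs with Psmg1 to build the alpha ring, measured -1.18, -1.30, -1.15, -1.09 and -1.21 in allo and -0.59, -0.89, -0.80 and -0.63 in syn Rag2-/- mice. In Il13-deficient mice it was -1.19, -1.16, -0.99 and -1.38 against -0.55, -0.48, -0.60 and -0.54, and in Il4ra-deficient mice -1.10, -0.99, -1.21 and -1.07 against -0.86, -0.81 and -0.77. No allo mouse reached a syn mouse of its own genotype, but the share of all genes that separate in this way was not counted. Psmg2 fell by 0.46 ± 0.10 (SE, adjusted p = 0.00131) and 0.64 ± 0.10 (8.88e-05), and its difference of -0.28 in Il4ra-deficient recipients did not pass (adjusted p = 0.116). Both calls held in all 35 alternatives, the second at -0.61 (adjusted p = 0.00276) without mice 6229 and 6234. Psmg4, which works with Psmg3, rose by 0.49 ± 0.12 (adjusted p = 0.00512) in Rag2-/- recipients, from -1.09 to -0.47 in syn to -0.36 to -0.23 in allo mice. In Il13-deficient recipients it rose by 0.42 ± 0.13 (adjusted p = 0.0267), a call lost without mouse 6223, 6224, 6229 or 6234 (0.37 to 0.42) and without both of the last (0.36, adjusted p = 0.159). This call was also lost with dim repeated values missing and in a fit of the compared groups alone. Psmg1 was lower by -0.45 ± 0.15 (adjusted p = 0.0456) in Il13-deficient recipients, lost in 18 of 35 alternatives, among them without mice 6229 and 6234 (-0.38, adjusted p = 0.209). Psmg3 passed nowhere.

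Of the 3 chaperones of the 19S base, Psmd5 was lower in allo Il13-deficient skin, at -1.30, -1.20, -1.48 and -1.31 against -1.23, -0.46, -1.04 and -0.71. The groups overlapped. Its difference of -0.46 ± 0.14 (SE, adjusted p = 0.0224) became -0.19 (adjusted p = 0.363) without mice 6229 and 6234. Its call was also lost without mouse 6226, 6229 or 6234 alone (-0.41 to -0.33) and in a fit of the compared groups alone. Psme4, the large single-chain activator PA200, fell by 0.36 ± 0.11 (adjusted p = 0.0193) in Rag2-/- and 0.40 ± 0.13 (0.0479) in Il4ra-deficient recipients. The first call was lost without mouse 5701 or 5703 (-0.32 each), with exact 0 kept as a value and in a fit of the compared groups alone. The second was lost in 23 of 35 alternatives. In Il13-deficient recipients Psme4 differed by -0.27 without passing (adjusted p = 0.128), and passed at -0.42 (0.0499) without mice 6229 and 6234. Its 4 probes ran from -0.43 to -0.03 in Rag2-/- recipients. Psmf1, an inhibitor, and Psmc3ip and Psme3ip1, which share the prefix but encode partner proteins and no subunit, passed in none.

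**Figure D3:**
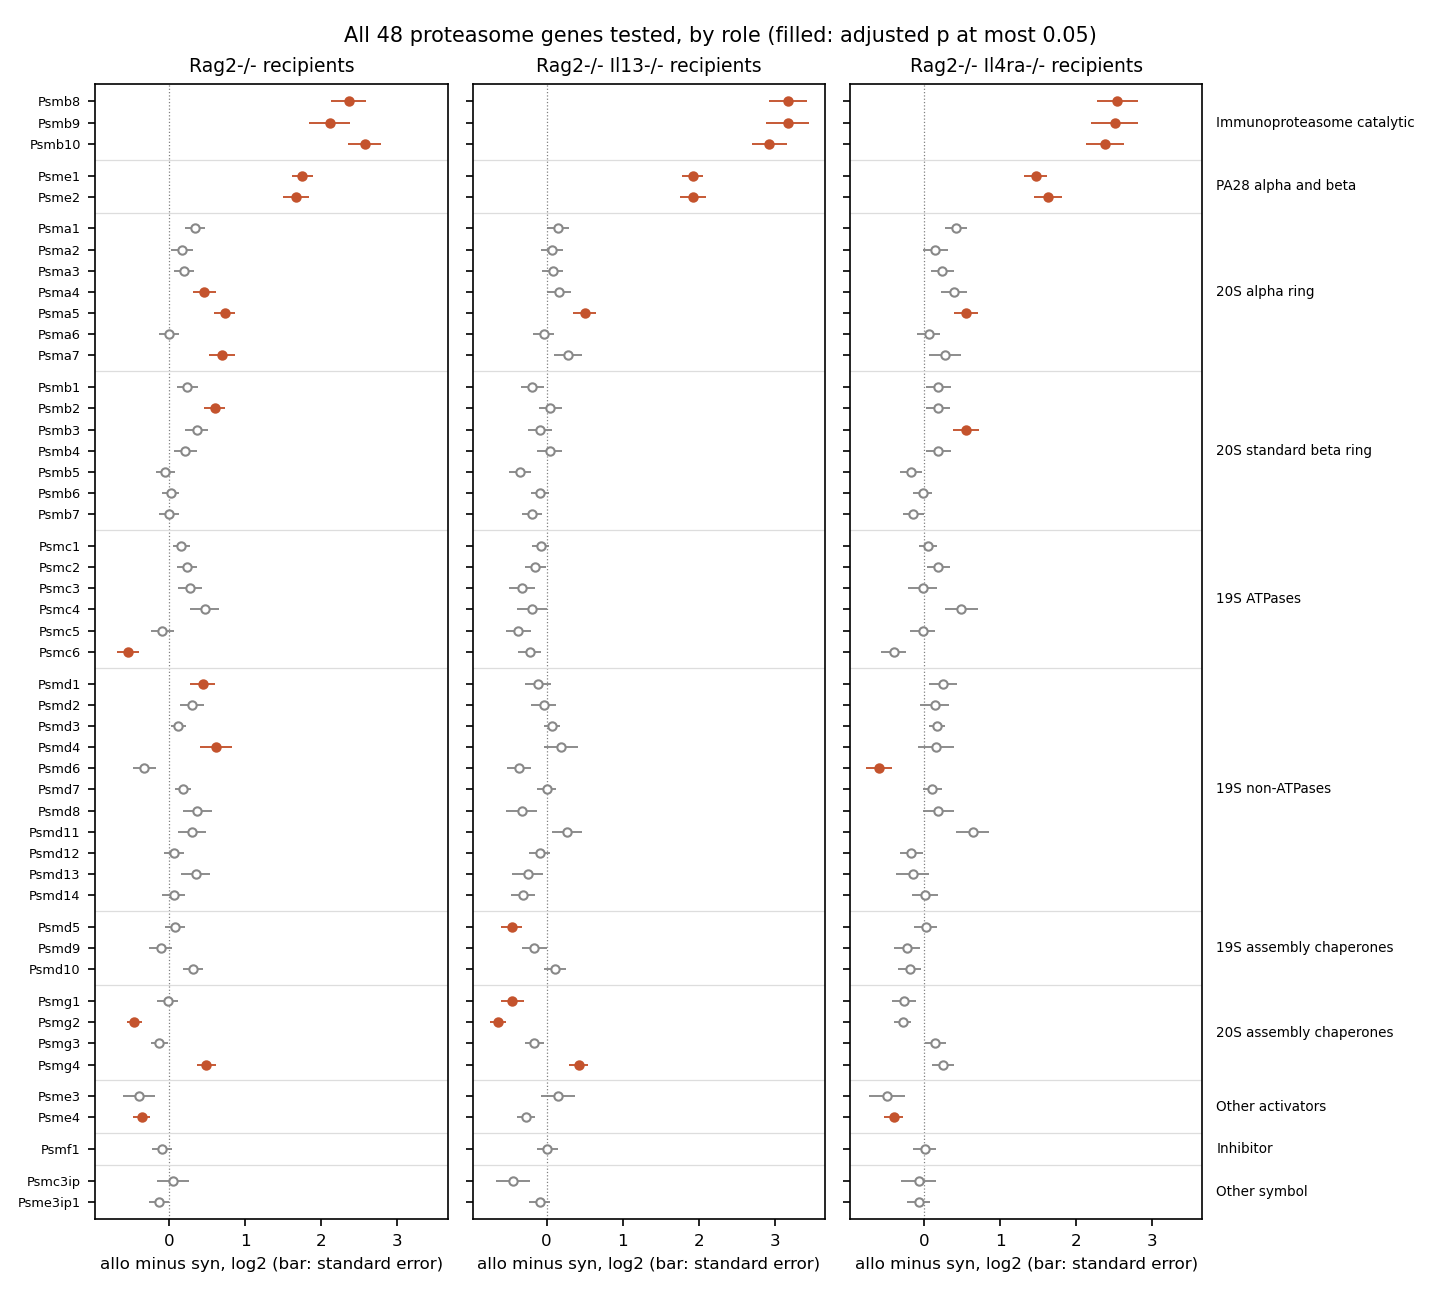
Allo minus syn difference (log2, horizontal axis, with standard error) of the 48 genes tested, grouped by role, in the 3 recipient genotypes. Filled orange points passed at an adjusted p of at most 0.05. The 5 inducible genes lie between 1.47 and 3.18 and the others between -0.64 and 0.73.

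Psma8, the testis alpha subunit, and Psmb11, the catalytic subunit of the thymus, had too few measured values for a test. Psma8 was measured in 1 to 3 mice of each group and ranged from -0.30 to 2.32. Psmb11 had 2 probes, each measured in 0 to 3 mice of a group, between -1.21 and 1.09. Of the 48 tested genes, 45 were measured in all mice. The SD between mice of a group had a median over the 43 other genes of 0.13 to 0.20 in the 6 groups. Over the inducible 5 it had a median of 0.60 in syn Il13-deficient mice and of 0.11 to 0.21 in the 5 remaining groups.

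Genes that work with the proteasome were counted from fixed lists. Of 17 tested cofactors and regulators, 3 were higher and 3 lower in Rag2-/-, 1 higher and 2 lower in Il13-deficient and 1 higher in Il4ra-deficient recipients, with medians of 0.01, -0.18 and -0.06. Of all genes 12.6% were called higher and 15.6% lower in Rag2-/-, 9.19% and 7.11% in Il13-deficient and 5.91% and 3.31% in Il4ra-deficient recipients. Pomp, the maturation factor of the core, was the one that rose each time, by 0.71 ± 0.15 (SE, adjusted p = 0.00114), 0.73 ± 0.15 (0.00194) and 0.69 ± 0.17 (0.012). Ube3c, a ligase bound to the proteasome, fell by 0.42 in Rag2-/- (adjusted p = 0.00645) and 0.34 in Il13-deficient recipients (0.0468). Akirin2, which carries proteasomes into the nucleus, fell by 0.57 in Il13-deficient recipients (adjusted p = 0.0161) and was at 0.01 and -0.02 in the others. Leaving out mice 6229 and 6234 gave 1 higher (5.88%) and 0 lower cofactors in Il13-deficient recipients, beside 6.48% and 3.53% of all genes. Pomp was then at 0.80, Ube3c at -0.33 (adjusted p = 0.126) and Akirin2 at -0.26 (0.26). Nfe2l1, the factor that raises proteasome genes when the proteasome is impaired and which is named here for that role, differed by -0.10, 0.16 and -0.06 without passing. Its Il13-deficient difference was -0.37 (adjusted p = 0.131) without mice 6229 and 6234.

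Most genes of interferon-induced antigen processing moved with the inducible subunits. Of 12 tested, 12, 10 and 11 were higher in Rag2-/-, Il13-deficient and Il4ra-deficient recipients, with medians of 1.89, 2.13 and 1.91. Of all genes 12.6%, 9.19% and 5.91% were called higher. In Il13-deficient recipients 11 of the 12 differences were above 0, and the lowest was -0.40. In Il13-deficient recipients 11 were higher, with a median of 1.82, when mice 6229 and 6234 were left out. Ifng, which encodes interferon-gamma, was higher by 3.97 ± 0.21 (SE), 3.92 ± 0.22 and 3.68 ± 0.24, and Irf1, a factor it induces, by 3.50, 4.07 and 3.35. The smallest changes that passed were Lap3, a peptidase, at 1.34 in Rag2-/-, Tapbpl, a peptide editor, at 1.68 in Il13-deficient, and Erap1, which trims peptides, at 1.25 in Il4ra-deficient recipients. Without mice 6229 and 6234 the smallest in Il13-deficient recipients was Lap3 at 0.67 (adjusted p = 0.0382). Nlrc5, on the same list, was then at 0.45 (0.643) and did not pass. Of 3 tested genes on a list of ubiquitin precursors and activating enzymes, the ones that passed activate ubiquitin-like proteins. Uba7, the enzyme for Isg15, was higher by 1.91, 2.86 and 2.03, and Uba3, of the Nedd8 enzyme, fell by 0.64 in Rag2-/- and 0.58 in Il4ra-deficient recipients. Of 11 heat shock and proteotoxic stress genes, 3 were higher and 1 lower in Rag2-/- recipients, beside 12.6% and 15.6% of all genes, and 0 passed in the others. Hspa8, a chaperone, was the highest at 0.88 (adjusted p = 0.00734), and Hspb1, a small heat shock protein, fell by 0.45.

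Whether the donor difference itself changed with the recipient was tested as a difference of differences, and both of these tests use the same Rag2-/- mice. No proteasome gene passed for Il13-deficient or for Il4ra-deficient recipients, beside 0.0135% and 0% of all genes. At an unadjusted p of at most 0.05 there were 2 inducible genes with a higher and 8 others with a lower donor difference in Il13-deficient than in Rag2-/- recipients, beside 9.19% of all genes higher and 6.86% lower at that p. In Il4ra-deficient recipients 1 other gene had a lower one, beside 2.54% of all genes. The largest was Psmb9 in Il13-deficient recipients, at 1.06 ± 0.39 (SE, adjusted p = 0.213), followed by Psmb8 at 0.82 (adjusted p = 0.252). Without mice 6229 and 6234 these were 0.28 ± 0.20 and 0.16 ± 0.19 (adjusted p = 0.992 for both). At the unadjusted p, 0 inducible and 1 other gene, with a lower donor difference, were then left. Among all 14299 genes tested without these mice, 429 had a higher and 328 a lower donor difference at that p. Without syn mouse 6225 Psmb9, Psmb8 and Psmd5 passed, 3 of 48 (6.25%) beside 5.80% of all genes.

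Recipients were also compared within a donor type. Among allo mice no proteasome gene passed for Il13-deficient against Rag2-/-, beside 0% of all genes. At an unadjusted p of at most 0.05 there were 0, beside 3.02% of all genes higher and 2.73% lower. For Il4ra-deficient against Rag2-/- none passed either, beside 0.805% of all genes. At that unadjusted p 3 proteasome genes were lower, beside 5.95% of all genes. The inducible 5 differed by -0.30 to -0.22 in the first comparison and by -0.40 to -0.17 in the second. The highest mean of all 5 genes was that of allo Rag2-/- mice and the lowest that of syn Il13-deficient mice. When mice 6229 and 6234 were left out, syn Il4ra-deficient mice were the lowest for Psmb8, Psmb10 and Psme2. In neither allo comparison did any of the 5 pass, and allo Il13-deficient and Il4ra-deficient mice, whose order varied by gene, were not tested against each other. Among syn mice, Psmb9 was lower in Il13-deficient than in Rag2-/- recipients by -1.35 (adjusted p = 0.0453), beside 0.284% of all genes called. It was the only proteasome gene to pass, and its call was lost in 24 of 34 alternatives. At an unadjusted p of at most 0.05 all 5 inducible genes were lower, beside 12% of all genes, and 9 others were higher, beside 8.38%. Without mice 6229 and 6234 the difference of Psmb9 was -0.57 ± 0.16 (SE, adjusted p = 0.771). At the unadjusted p, 2 inducible genes were then lower and 0 others higher, beside 304 lower and 213 higher of all 14299 genes tested. Without syn mouse 6225, 8 of 48 proteasome genes (16.7%) passed beside 12.5% of all genes, and without syn mouse 6230, 5 (10.4%) beside 6.69%. For syn Il4ra-deficient against Rag2-/- mice none passed, beside 0% of all genes. At an unadjusted p of at most 0.05 there were 0, beside 1.18% of all genes higher and 1.72% lower. The inducible 5 differed by -0.57 to -0.12.

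Markers of leukocytes moved with the inducible subunits in every donor comparison. In whole skin, more cells of a type and more RNA per cell cannot be told apart. Of 12 leukocyte markers, 12, 12 and 11 were higher in allo skin of Rag2-/-, Il13-deficient and Il4ra-deficient recipients, as were 9, 9 and 8 of 9 T cell and 9, 9 and 7 of 9 macrophage markers tested. Of all genes 12.6%, 9.19% and 5.91% were called higher in these recipients. The Il13-deficient counts were 12, 8 and 9 without mice 6229 and 6234, beside 6.48% of all genes. The called leukocyte genes ran from Cd37 at 0.88 to Itgb2 at 3.23 in Rag2-/-, from Cd37 at 1.57 to Cd52 at 3.49 in Il13-deficient and from Cd48 at 1.05 to Hcls1 at 2.50 in Il4ra-deficient recipients. Cd8b1, a chain of the CD8 co-receptor, was the highest T cell gene at 6.28, 6.38 and 4.58, and the lowest called were Cd3e at 0.79 and 0.77 and Thy1 at 1.07. Macrophage genes ran from Csf1r, a growth factor receptor, at 1.45, 2.04 and 1.17 to Fcgr4, an antibody receptor, at 3.97, 4.21 and 3.47. The mean leukocyte marker level ran from 1.37 to 1.87 in allo and from -0.73 to -0.52 in syn Rag2-/- mice, from 0.49 to 2.05 and -1.99 to -0.79 in Il13-deficient mice, and from 0.77 to 0.89 and -1.07 to -0.63 in Il4ra-deficient mice. The mean level of the inducible 5 ran from 2.67 to 3.12 and 0.72 to 0.88, from 2.41 to 2.77 and -0.71 to 0.58, and from 2.47 to 2.67 and 0.33 to 0.67. The part of leukocytes in the difference was not tested.

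The order of the 6 group means was the same on both measures, from allo Rag2-/- (1.61 for leukocyte markers and 2.87 for the inducible 5) to syn Il13-deficient mice (-1.41 and -0.01). Without mice 6229 and 6234 the latter were -1.02 and 0.51, and for the inducible 5 syn Il4ra-deficient mice were then the lowest (0.47). The spread within groups differed. Among allo mice, the mean leukocyte level had an SD of 0.65 in the Il13-deficient group, 0.20 in the Rag2-/- and 0.05 in the Il4ra-deficient group. The mean of the inducible 5 had SDs of 0.15, 0.17 and 0.09. Mouse 6226 had the lowest leukocyte level of the allo mice, at 0.49, with the inducible 5 at 2.41. Mouse 6224 had the highest, at 2.05, with the inducible 5 at 2.77. In syn mice 6229 and 6234 the leukocyte level was -1.62 and -1.99, below the other syn mice, and the inducible 5 stood at -0.35 and -0.71. Of 6 hair follicle markers tested, 0 passed in Rag2-/- recipients (median 1.10) and 0 in Il4ra-deficient ones (0.33). In Il13-deficient recipients, the comparison that holds these 2 mice, 5 of 6 were lower in allo skin (median -4.24), from Krt34 at -5.65 to Lef1 at -2.45, and 1 of 6 without them (median -2.86). Of all genes 7.11% were lower with these 2 mice and 3.53% without them. Keratinocyte and skeletal muscle markers were lower in allo Rag2-/- skin for 5 of 11 genes (Trp63 -1.33 to Krt1 -0.53) and 5 of 12 (Eno3 -1.41 to Myh1 -0.71), and 0 passed in the other recipients. Of all genes 15.6% were lower in Rag2-/- recipients. Markers of dividing cells were higher for 8, 0 and 4 of 11, beside 12.6%, 9.19% and 5.91% of all genes. They ran from Mcm5 at 1.02 to Birc5 at 1.52 in Rag2-/- and from Bub1 at 0.92 to Birc5 at 1.53 in Il4ra-deficient recipients.

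**Figure D4:**
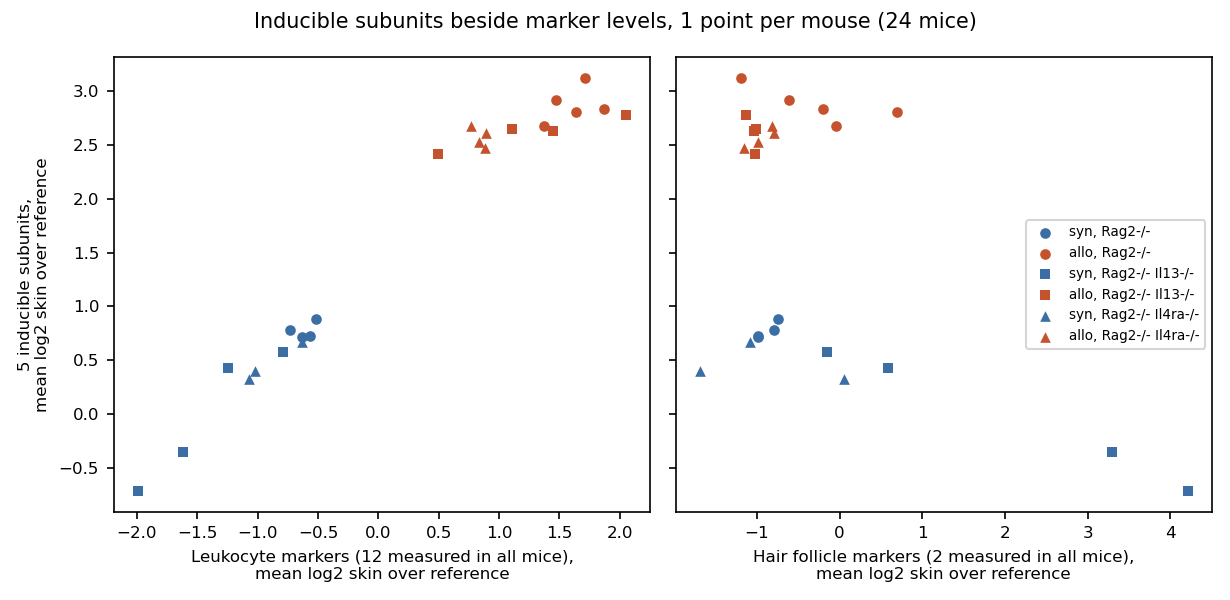
Mean level of the 5 inducible genes (log2 skin over reference, vertical axis) against the mean level of 12 leukocyte markers (left) and of the 2 hair follicle markers measured in all mice (right), 1 point per mouse, coloured by donor and shaped by recipient. Allo mice lie at 2.41 or higher and syn mice at 0.88 or lower, and the lowest points are mice 6229 and 6234.

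Mouse numbers begin with 45, 57, 61 or 62, and the labels do not say what these number series stand for. Series 57 and 61 held the Rag2-/- mice and series 45 and 57 those lacking Il4ra. Every mouse lacking Il13 belonged to series 62, so that this series and the Il13 deletion cannot be told apart. Within series 57, Psmb8 was higher in allo skin by 2.23 in Rag2-/- (2 allo, 3 syn mice) and 2.45 in Il4ra-deficient recipients (2 allo, 2 syn). It was higher by 2.45 within series 61 (3 allo, 1 syn) and by 2.61 within series 45 (2 allo, 1 syn). Differences within series 61 and 45 thus rest on a single syn mouse each. The other inducible genes were higher by 1.33 to 2.57 within these 3 series, and the median of the other 43 proteasome genes lay between 0.05 and 0.15. Arrays of the same mouse differed by at most 0.54 for any of the inducible 5. The 2 probes of Psmb8 gave differences within 2.31 to 2.42 in Rag2-/- recipients and those of Psme2 within 1.61 to 1.73.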

How the data were processed

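Skin RNA, labelled Cy3, and a common reference RNA, labelled Cy5, were hybridised together on each array, per the labels. The authors deposited 1 value per probe and array, read here as a log2 ratio of reference over skin. How they were background-corrected, normalized and filtered is not stated in what was used here. Gaps between recurring values gave the log base, and the sign was turned on the dyes in the labels: after turning, 12 of 12 keratinocyte and 0 of 11 dividing-cell markers had a median above 0. An exact 0 (2.41% to 36.8% of probes per array, median 24.4%) was read as missing. Dim probes have no bound, since spot intensities were not used, and precision is limited by how many arrays there were.

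Of 41174 probes, 32664 had 1 gene name, 45 several and 8465 none in the platform annotation, and all 50 proteasome symbols matched the RefSeq gene table. Each gene took the mean over its most complete probes (those missing the same mice), and arrays of a mouse were averaged (mouse 5702 had 3, mice 5703 and 6232 had 2). Genes with values from 2 or more mice per group were fitted over all 6 groups with limma 3.58.1 (R 4.3.3, lmFit and eBayes, two-sided), and p-values were adjusted by Benjamini-Hochberg over 14783 genes. Subunit pairs used scipy 1.17.1's exact permutation test, adjusted over 9 tests. The procedure was tested on simulated data. Proteasome genes and lists were chosen with earlier results of these data known. Per-mouse values were set for the inducible 5 and their counterparts, and statistics for the 3 largest calls each way per donor comparison and for any recipient-comparison call. Of other lists, the highest and lowest called differences per comparison were named, with Nfe2l1 added for its role. Alternatives covered zeros, dim values, scaling, probes, arrays, number series, fits and left-out mice.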

Additional observations from a re-analysis of the deposited data

Results flagged for a closer look

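Of 98 sets of values (20 proteasome genes, each group of 4 or 5 mice), 5 held 1 mouse far from the rest of its group, about the 1 in 20 that chance gives. Psmb8 was 3.91 in allo Rag2-/- mouse 6154, while the other 4 mice lay between 3.28 and 3.46. Psmb8 was 3.03 in allo Il13-deficient mouse 6226 and 3.25 to 3.26 in the others. Psma5 was 0.25 in syn Rag2-/- mouse 6153 and -0.27 to -0.20 in the others, and 0.26 in allo Il4ra-deficient mouse 5720 against 0.48 to 0.50. Psmc6 was -0.40 in allo Il13-deficient mouse 6224 and -0.21 to -0.19 in the others.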

How the results depend on the processing

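All 5 inducible genes were called higher in each donor comparison under every alternative. Over 30 results, 266 of 301 values under other settings and 627 of 720 with a mouse left out were rated the same as the main result. In both cases 0 reversed, but many of these results are counts, which have no direction to reverse. The counts of other proteasome genes moved more. Exact 0 kept as a value gave 0 higher and 1 lower in Il4ra-deficient recipients, and adjusted p of 0.0429 for the Il13-deficient balances of 3.52, 3.25 and 3.12. Dim repeated values set missing gave 1 higher in Il13-deficient recipients, 2 calls between syn Il13-deficient and Rag2-/- mice, and adjusted p of 0.0514 for the Rag2-/- balances of 2.42, 2.09 and 2.57. Quantile normalization gave 1 higher and 1 lower in Il4ra-deficient recipients and 0 between the syn groups. Centring on the median gave 1 lower in Il4ra-deficient recipients. Genes measured in all mice gave 2 between the syn groups. The single most complete probe gave 1 lower in Il4ra-deficient recipients and 2 between the syn groups. The first array of each mouse gave 1 higher, 1 lower and 0 there. The number series as a block gave 4 higher in Rag2-/- and 0 higher and 1 lower in Il4ra-deficient recipients. Fitting the compared groups alone gave 1 lower in Rag2-/-, 0 higher and 1 lower in Il13-deficient, 1 lower in Il4ra-deficient recipients and 0 between the syn groups. Without mice 6229 and 6234, the Il13-deficient medians were 2.38 for the inducible 5 and 0.07 for the others, with 1 higher and 0 between the syn groups. Without mouse 5718 there were 0 higher and 1 lower in Il4ra-deficient recipients and 0 between the syn groups. Fitting fewer mice leaves fewer degrees of freedom, but the causes of these changes were not tested. The share of all genes called, which also changes with the mice fitted, is not set beside these counts. They tell only how steady the calls were, not how proteasome genes compare with all genes.

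Leaving out 1 mouse at a time, the others called ranged from 4 (without 5703, 6151 or 6154) to 9 higher and 2 to 4 lower in Rag2-/- recipients. They ranged from 0 (without 6224) to 2 higher and 1 (without 6229 or 6234) to 3 lower in Il13-deficient recipients, and from 0 to 3 higher and 0 to 2 lower in Il4ra-deficient ones, where 0 higher came without 4533, 4534, 4535, 5701, 5717, 5718 or 5719 and 0 lower without 4533, 4535 or 5717. The share of all genes called was not set beside these counts either. The Il4ra-deficient median of the inducible 5 ran from 2.26 to 2.56. Calls for the difference of donor differences in Il13-deficient recipients ran from 0 to 3 (without 6225, beside 5.8% of all genes). Between the syn groups they ran from 0 to 8 (without 6225, beside 12.5%) or 5 (without 6230, beside 6.69%). The Rag2-/- balances ran from 2.31 to 2.56, 1.94 to 2.23 and 2.44 to 2.65, and with 8 mice their exact test could not pass after adjustment. No paired analysis was possible because mouse numbers name single animals and are not shared between groups.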
